A study of Mus musculus with 24 samples.

Results

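The 10 genes described here make the antigen-presenting class I machinery of the mouse cell: the heavy chain genes H2-K1 and H2-D1, the light chain gene B2m, the peptide transporter genes Tap1 and Tap2, the loading gene Tapbp, the immunoproteasome subunit genes Psmb8, Psmb9 and Psmb10, and Nlrc5, the activator of this set. They were chosen by name, and all 10 of 10 were found among the 49315 genes of the count tables and passed the filter on low counts. Their levels were measured by RNA sequencing of intrahepatic cholangiocytes, the epithelial cells of the bile ducts within the liver, in 24 libraries that fall into 8 groups of 3. In each sex these groups were dnTGFB mice given secretin for 8 weeks and killed at 40 weeks of age, untreated dnTGFB mice, whose age no label states, WT mice given secretin for 8 weeks and killed at 40 weeks, and untreated WT mice killed at 32 weeks. Secretin is a gut hormone that makes bile ducts secrete bicarbonate, and a pump under the skin released 4 µg per kg of body weight a day. Mice of the dnTGFB groups carry a dominant-negative TGF-β receptor type II. The design text calls them a model of primary biliary cholangitis, an autoimmune disease of bile ducts. In the published line of that name the transgene runs from a CD4 promoter in T cells, and neither its promoter nor the strain stands in the labels. No control for the pump itself was among the libraries analysed here, and secretin-treated WT mice were older than untreated WT mice.

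Cells of 6 to 8 mice were pooled for a group, and 3 libraries were made from the RNA of each pool. A p-value below thus reflects only how libraries of 1 pool varied, which by the design is technical, and not how mice varied. In 12 libraries the genotype label disagreed with the title: untreated dnTGFB libraries carried the label of wild-type mice, and those of WT secretin that of transgenic mice. Groups follow the titles, which match the series' design text.

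Class I molecules show cytotoxic T cells a sample of the peptides made inside a cell. The proteasome cuts proteins into peptides, and in cells that receive interferon gamma its catalytic subunits are exchanged for Psmb8, Psmb9 and Psmb10, which favour peptide ends that class I molecules bind. Tap1 and Tap2 form the pump that carries peptides into the endoplasmic reticulum, tapasin, the product of Tapbp, holds empty class I molecules beside the pump, and B2m joins the heavy chain before the complex leaves for the surface. Nlrc5 enters the nucleus and turns on class I genes through a conserved promoter module. Bile duct cells carry class I molecules, and cytotoxic T cells that attack bile ducts are a hallmark of primary biliary cholangitis.

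Several libraries did not look like the rest of their group. Total counts were 15225605 to 30203330 in 11 male libraries but 1429218 in male dnTGFB library 3, which also held heart muscle markers at a sum of 15793.3 CPM (read counts scaled to a common library total) and neuronal markers at 5382.7 CPM. Its difference from its nearest group member was 78.42 times counting variance, against 1.1 to 1.44 for other male pairs, and male WT library 1 stood apart too, at 40.0. In that WT library, mitochondrially encoded genes took 42.75% of the counts, against 9.73% and 9.75% in WT libraries 2 and 3. The share was higher still, 55.07% and 55.03%, in male dnTGFB libraries 1 and 2, which were kept throughout. It was 19.38% to 19.46% in male WT secretin and 11.44% in dnTGFB library 3. Its part in the results was not tested. Results below are given with all 12 male libraries and without WT library 1 and dnTGFB library 3. Among females, dnTGFB libraries 1 and 2 and WT secretin libraries 2 and 3 held heart muscle markers at 51713.9 to 59849.8 CPM, with the Y-linked gene Ddx3y at 46.79 to 64.31 CPM. In 2 pairs, female libraries of different groups were nearly identical: dnTGFB secretin library 1 and WT library 2 (1.16 times counting variance), and dnTGFB secretin library 3 and WT secretin library 1 (1.42, against 62.68 between that WT secretin library and its nearest group member). Male WT library 1 was likewise nearer to dnTGFB library 2 (7.3) than to its own group. Groups follow the titles, and whether libraries were exchanged was not tested. Bile duct markers, the check of the labelled cell type, summed to 8921.2 to 9068.2 CPM in male dnTGFB secretin, to 974.9 to 1058.6 CPM in male dnTGFB, to 3649.8 to 3698.8 CPM in male WT secretin and to 2262.4 to 5455.0 CPM in male WT. Fewer cells of a type and less RNA per cell cannot be told apart in such bulk libraries.

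In GRCm38, H2-K1 (ENSMUSG00000061232) occupies bases 33996017 to 34000347 of chromosome 17, minus strand, and H2-D1 (ENSMUSG00000073411) bases 35262730 to 35267499 of the same chromosome, plus strand. Between them sits a block in which Psmb9 (34181987 to 34187764, minus strand) overlaps the start of Tap1 (34187553 to 34197225, plus strand), followed by Psmb8 (34197721 to 34201454, plus strand) and Tap2 (34203527 to 34216321, plus strand), while Tapbp runs from 33915899 to 33929292 on the plus strand. B2m lies on chromosome 2 from 122147686 to 122153083, and chromosome 8 holds Nlrc5 from 94434356 to 94527272, both on the plus strand, and Psmb10 from 105935735 to 105938444 on the minus strand. No label or header states whether counting used strand, so reads in the stretch shared by Psmb9 and Tap1 cannot be assigned to 1 of them with certainty. The bounds of Tapbp and Nlrc5 also overlap a gene on their own strand, Zbtb22 and Mir7072. Those of B2m, Tap2, Tapbp, Psmb8, Psmb10 and Nlrc5 overlap genes on the other strand. Windows of 50 bases that also occur in another gene made up 8.8% of the H2-K1 transcript, 14.3% of the H2-D1 transcript and at most 2.0% of the other 8. With windows of 100 bases the shares were 0.0% for H2-K1, 4.6% for H2-D1 and at most 0.1% for the other 8.

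Promoters of 8 of the 10 genes were matched in the RefSeq table of GRCm38.p6, and 5 are shown: those of H2-K1, H2-D1 and B2m, whose products form the class I complex, of Tap1, the member with the lowest estimate in male WT secretin against WT, and of Psmb8, the single member with a STAT motif. Each line gives the 250 bases before the start of transcription in that table, 5′ to 3′ on the gene's own strand. All matches to 5 searched motifs are in capitals. The motifs were GAANNGAAA (bound by interferon regulatory factors), TTCNNNGAA (bound by STAT proteins), the NF-κB motif, whose match is given below in letters, CCAAT (the Y box of class I and class II promoters) and TGACG (the core of their X2 box), each on both strands. H2-K1 has 2 starts in the table and the upstream one is printed, at chr17:34000348-34000597 on the minus strand. The others are H2-D1 at chr17:35262844-35263093, B2m at chr2:122147437-122147686, Tap1 at chr17:34187306-34187555 and Psmb8 at chr17:34197945-34198194, all on the plus strand. The windows of H2-D1 and Psmb8 lie within the gene bounds given above, which begin further upstream.
H2-K1: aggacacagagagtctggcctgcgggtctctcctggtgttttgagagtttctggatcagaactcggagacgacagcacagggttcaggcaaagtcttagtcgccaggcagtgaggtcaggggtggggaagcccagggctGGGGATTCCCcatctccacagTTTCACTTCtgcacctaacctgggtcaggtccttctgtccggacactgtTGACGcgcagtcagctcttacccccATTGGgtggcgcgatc
H2-D1: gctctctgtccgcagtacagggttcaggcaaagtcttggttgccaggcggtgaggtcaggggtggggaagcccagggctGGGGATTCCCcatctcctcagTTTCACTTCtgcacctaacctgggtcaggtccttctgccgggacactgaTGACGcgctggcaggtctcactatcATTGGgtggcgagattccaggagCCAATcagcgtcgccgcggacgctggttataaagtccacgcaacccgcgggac
B2m: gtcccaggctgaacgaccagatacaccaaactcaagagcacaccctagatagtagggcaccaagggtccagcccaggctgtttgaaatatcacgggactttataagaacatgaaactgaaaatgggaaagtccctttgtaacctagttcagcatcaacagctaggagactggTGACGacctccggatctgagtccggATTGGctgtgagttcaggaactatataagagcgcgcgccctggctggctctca
Tap1: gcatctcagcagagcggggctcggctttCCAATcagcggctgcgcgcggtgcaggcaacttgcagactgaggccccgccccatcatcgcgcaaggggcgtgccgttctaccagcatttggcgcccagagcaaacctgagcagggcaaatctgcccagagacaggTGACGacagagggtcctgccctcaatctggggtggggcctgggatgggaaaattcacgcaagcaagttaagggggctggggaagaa
Psmb8: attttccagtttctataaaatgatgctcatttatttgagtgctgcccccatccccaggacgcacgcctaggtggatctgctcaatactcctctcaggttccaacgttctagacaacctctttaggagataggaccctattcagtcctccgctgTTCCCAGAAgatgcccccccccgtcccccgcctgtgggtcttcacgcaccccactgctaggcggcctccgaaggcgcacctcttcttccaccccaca
In the full windows, which run to 50 bases after the start, the interferon motif as searched was present in 2 of the 8 genes. These were H2-K1 and H2-D1, as TTTCACTTC, against 7.5% of 32851 promoter windows. The search took exact letters and spacing only. The printed B2m sequence also holds gaaactgaaa and gggaaagtccc, which have a longer gap than the searched interferon and NF-κB motifs and were not counted. Absence of a match thus does not mean that a gene lacks such an element. The NF-κB motif was present in the same 2 genes as GGGGATTCCC, against 1.8% of windows, with its leftmost base at −111 in H2-K1 and −171 in H2-D1, upstream of the interferon motif at −90 and −150. The STAT motif was found in 1 gene, Psmb8, as TTCCCAGAA (8.3% of windows), the Y box in 6 genes (37.4%) and the X2 core in 5 (20.8%). No 2 matches of different motifs overlapped in the sequences printed. The windows of Tap1 and Psmb9, which are transcribed away from each other, share 275 bases, so the printed Tap1 sequence is also most of the Psmb9 promoter. Their Y box and X2 core matches are the same bases, counted for both genes. A match is a match of letters and shows no binding.

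In males the 10 genes covered a wide range of levels. On a per-kilobase scale, from CPM divided by the gene length in the count tables, dnTGFB secretin libraries averaged 1779 ± 33.2 for B2m, 1342 ± 11.2 for H2-K1, 1035 ± 9.53 for H2-D1, 86.5 ± 3.77 for Psmb10, 84.3 ± 2.10 for Tapbp, 62.3 ± 0.544 for Tap2, 54.3 ± 1.06 for Psmb8, 41.6 ± 1.26 for Tap1, 31.8 ± 1.88 for Psmb9 and 6.37 ± 0.195 for Nlrc5 (SD, n = 3). In this order only Psmb10 and Tapbp were closer than their spread. H2-K1, H2-D1 and B2m together took 79.25% to 89.13% of the counts of the 10 genes in every library of the series.

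The heavy chain gene H2-K1 encodes the K molecule, 1 of the classical class I chains that present peptide. It stood at 3533, 3493 and 3476 CPM in the male dnTGFB secretin libraries, at 3292, 3259 and 508 CPM in dnTGFB, at 2155, 2188 and 2164 CPM in WT secretin and at 2866, 2493 and 2560.0 CPM in WT. The 4 groups did not overlap once dnTGFB library 3 was set aside, with dnTGFB secretin highest and WT secretin lowest.
H2-D1, the D molecule, gave 2674, 2689 and 2641 CPM in dnTGFB secretin, 2619, 2584 and 412 CPM in dnTGFB, 1938, 1957 and 1962 CPM in WT secretin and 2496, 2491 and 2545 CPM in WT. Here the order was the same but 3 of the groups lay close together and only WT secretin was set off from them. The light chain gene B2m gave 1559, 1529 and 1502 CPM in dnTGFB secretin, 1844, 1702 and 345 CPM in dnTGFB, 1095, 1095 and 1104 CPM in WT secretin and 1767, 1446 and 1460.0 CPM in WT. B2m was thus highest in dnTGFB library 1, followed by WT library 1 and dnTGFB library 2, and again lowest, apart from dnTGFB library 3, in WT secretin.

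Tap1, one chain of the peptide pump, stood at 234, 229 and 221 CPM in the male dnTGFB secretin libraries, at 230.3, 204 and 28.2 CPM in dnTGFB, at 102, 95.2 and 101 CPM in WT secretin and at 195, 146 and 145 CPM in WT. The dnTGFB secretin libraries overlapped dnTGFB library 1, and WT secretin was lowest but for dnTGFB library 3. Tap2, the partner chain, followed another order, with 235, 238 and 234 CPM in dnTGFB secretin, 137, 125 and 31.7 CPM in dnTGFB, 159.9, 153 and 149.6 CPM in WT secretin and 146, 170.4 and 176 CPM in WT. All dnTGFB libraries lay below all WT libraries for Tap2, and WT secretin overlapped WT. Tapbp, the loading gene, was 286, 274 and 274 CPM in dnTGFB secretin, 199, 209 and 53.4 CPM in dnTGFB, 189, 196 and 198 CPM in WT secretin and 204, 201 and 213 CPM in WT. For Tapbp only dnTGFB secretin and dnTGFB library 3 were set off from the rest.

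Among the immunoproteasome genes, Psmb8 stood at 149.8, 151 and 145 CPM in male dnTGFB secretin, at 131, 130.1 and 30.5 CPM in dnTGFB, at 96.2, 104 and 104 CPM in WT secretin and at 144, 112 and 118 CPM in WT. Psmb9 was 117, 123 and 109 CPM in dnTGFB secretin, 85.0, 89.6 and 16.4 CPM in dnTGFB, 55.3, 64.1 and 66.1 CPM in WT secretin and 79.2, 82.9 and 80.8 CPM in WT. Psmb10 was 144, 155 and 144 CPM in dnTGFB secretin, 130.2, 111 and 88.0 CPM in dnTGFB, 80.7, 85.7 and 87.9 CPM in WT secretin and 95.8, 102 and 112 CPM in WT. All 3 genes were highest in dnTGFB secretin, and all 3 were lower in every WT secretin library than in every WT library. Nlrc5, the activator, had 55.5, 54.4 and 52.3 CPM in dnTGFB secretin, 52.8, 51.4 and 6.45 CPM in dnTGFB, 46.6, 35.7 and 31.9 CPM in WT secretin and 44.7, 25.4 and 25.0 CPM in WT. Its WT secretin libraries overlapped its WT libraries and were above WT libraries 2 and 3. Male dnTGFB library 3 held 12.4% (Nlrc5) to 26.1% (Tapbp) of the mean of dnTGFB libraries 1 and 2 for 9 of the genes, and 73.1% for Psmb10.

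**Figure D1:**
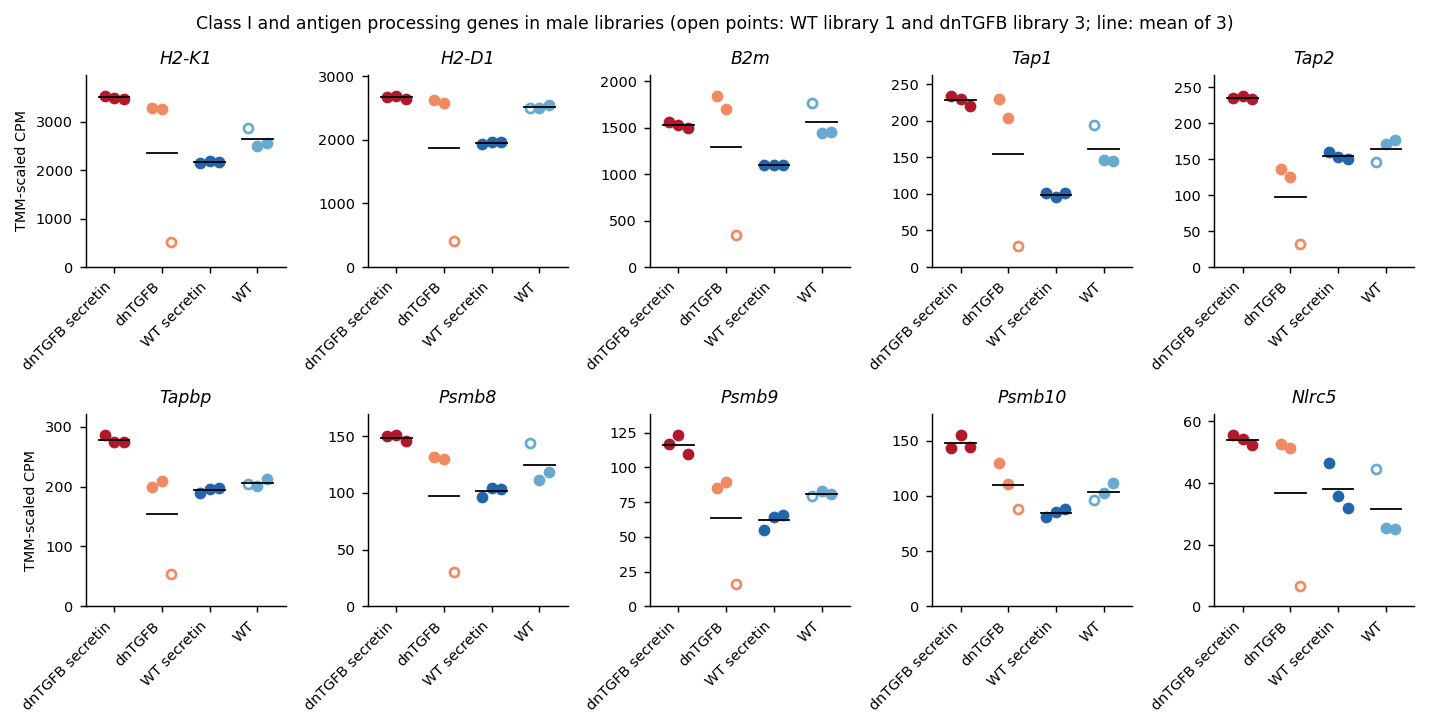
Levels of the 10 genes in the 12 male libraries, in TMM-scaled CPM on a linear axis from 0, with the groups from left to right dnTGFB secretin, dnTGFB, WT secretin and WT. Each point is a library, open points are dnTGFB library 3 and WT library 1, and lines are means of 3 libraries. For 9 of the 10 genes every dnTGFB secretin library lies above every WT library, B2m being the exception.

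Secretin in male WT mice went with lower class I levels in most of the 10 genes, although none passed the test with all libraries. With both groups as 3 libraries, 8 of the 10 genes were lower in every WT secretin library than in every WT library, a pattern that 21.4% of all genes tested showed, and Tap2 and Nlrc5 overlapped. Tap1 had the largest estimate, 99.2 ± 3.49 CPM in WT secretin and 162 ± 28.5 CPM in WT (SD, n = 3 each), a log2 difference of −0.71 ± 0.51 (SE, adjusted p = 0.486). B2m differed by −0.50 ± 0.46 (adjusted p = 0.597), Psmb9 by −0.39 ± 0.41 (0.657) and Psmb10 by −0.29 ± 0.16 (0.341). The median over the 10 genes was −0.29 and that over all genes 0.00.
Tested by edgeR (quasi-likelihood test, Benjamini-Hochberg adjustment), 0 of the 10 genes were called at an adjusted p under 0.05, with 0 at an unadjusted p under 0.05, while 6.22% of all genes were called. DESeq2 also called 0, with 1 at an unadjusted p under 0.05 and 16.6% of all genes called. Without WT library 1 and dnTGFB library 3, edgeR called 9 of the 10 genes, and 40.5% of all genes. Without dnTGFB library 3 alone it called 7, and 30.7% of all genes. Of the 9, 8 were lower, with H2-K1 at −0.22 ± 0.02 (adjusted p = 5.01e-09), H2-D1 at −0.37 ± 0.02, B2m at −0.41 ± 0.03, Tap1 at −0.56 ± 0.05, Tap2 at −0.17 ± 0.05, Psmb8 at −0.18 ± 0.05, Psmb9 at −0.41 ± 0.07 and Psmb10 at −0.34 ± 0.07. Nlrc5 was higher by 0.60 ± 0.11 (adjusted p = 0.000152), and Tapbp stood at −0.10 ± 0.04 (adjusted p = 0.0848). Xist, a transcript of female cells, was at 33.98 to 42.43 CPM in the male WT secretin libraries. With all libraries 5 of 8 B cell markers, 6 of 6 platelet markers and 1 of 12 bile duct markers were lower in WT secretin. Higher were 3 of 12 macrophage and 4 of 7 dendritic cell markers. Without WT library 1 and dnTGFB library 3, 9 of 12 bile duct markers were lower and 3 higher, and 8 of 8 B cell and 6 of 6 platelet markers were lower. In that fit 11 of 12 hepatocyte, 9 of 12 T cell, 8 of 12 macrophage and 7 of 9 neutrophil markers were higher and 0 lower. The part of these in the class I differences was not tested.

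Secretin in male dnTGFB mice went with higher estimates for all 10 genes, and 1, Tap2, passed the test. Tap2 averaged 236 ± 2.06 CPM in dnTGFB secretin and 97.9 ± 57.7 CPM in dnTGFB (SD, n = 3 each), a log2 difference of 1.25 ± 0.39 (adjusted p = 0.0406 by edgeR's quasi-likelihood test). Tapbp differed by 0.84 ± 0.37 (adjusted p = 0.122), Psmb9 by 0.84 ± 0.42 (0.163), Psmb10 by 0.42 ± 0.16 (0.0763) and H2-K1 by 0.57 ± 0.51 (0.434). The median was 0.56, against −0.05 over all genes. In 7 of the 10 genes every dnTGFB secretin library was above every dnTGFB library, as in 22.8% of all genes, and B2m, Tap1 and Nlrc5 overlapped.
The test called 1 of 10 genes by edgeR (22.6% of all genes) and 2 by DESeq2 (33.1%). Left out one at a time, the 12 libraries gave Tap2 between 0.86 and 1.57 with adjusted p from 2.42e-06 to 0.102, and the call was kept only in the 3 fits that left out a dnTGFB library. Without dnTGFB library 1 edgeR called 2 genes (25.0% of all genes), without dnTGFB library 2 it called 1 (26.2%), and without dnTGFB library 3 it called 5 (37.4%). Scaling by library totals in place of TMM gave 10 calls (40.1% of all genes) and a median of 1.58, against 0.75 over all genes. With a replicate block none of the 10 was called, Tap2 included, against 2869 of 18777 genes. Without WT library 1 and dnTGFB library 3, 7 of 10 genes were called (46.6% of all genes) and the differences shrank. In that fit Tap2 was higher by 0.85 ± 0.05 (adjusted p = 1.13e-12), Tapbp by 0.45 ± 0.04, Psmb9 by 0.42 ± 0.07, Psmb10 by 0.30 ± 0.07, Psmb8 by 0.19 ± 0.05 and H2-K1 by 0.10 ± 0.02, while B2m was lower by 0.21 on the log2 scale. H2-D1 stood at 0.04 ± 0.02, Tap1 at 0.08 ± 0.05 and Nlrc5 at 0.06 ± 0.11, none of them called. All 12 bile duct markers were higher in dnTGFB secretin with all libraries (median 2.35), as were 11 of 12 macrophage markers (median 1.72), while 6 of 12 hepatocyte and 7 of 8 neuronal markers were lower. Without WT library 1 and dnTGFB library 3, 12 of 12 bile duct and 12 of 12 macrophage markers were higher. In that fit 12 of 12 hepatocyte, 12 of 12 T cell, 9 of 9 neutrophil and 7 of 8 neuronal markers were lower and 0 higher. Their part in the class I differences was not tested.

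Between untreated male dnTGFB and WT mice 8 of the 10 estimates changed sign when 1 library was left out, and none was called with all libraries. With all libraries 8 of the 10 estimates were below 0, Tap2 leading at 97.9 ± 57.7 CPM in dnTGFB against 164 ± 16.0 CPM in WT, a log2 difference of −0.73 ± 0.38 (adjusted p = 0.204). H2-K1 stood at −0.17 ± 0.51 (adjusted p = 0.849), H2-D1 at −0.42 ± 0.50 (0.578), B2m at −0.26 ± 0.46 (0.714) and Nlrc5 at 0.28 ± 0.49 (0.711), with a median of −0.29 against 0.01 over all genes. edgeR called 0 of 10 (0 at an unadjusted p under 0.05, 17.0% of all genes called), as did DESeq2 (0 unadjusted, 26.6% of all genes). In Tap2 alone every dnTGFB library lay below every WT library, as in 19.9% of all genes.
Leaving out dnTGFB library 3 turned 6 of the estimates positive, H2-K1 to 0.31, H2-D1 to 0.05, B2m to 0.18, Tap1 to 0.42, Psmb8 to 0.06 and Psmb9 to 0.10, and 3 genes were called, against 34.2% of all genes. Leaving out dnTGFB library 1 instead turned the other 2, Psmb10 to −0.07 and Nlrc5 to −0.01. Scaling by library totals with all libraries gave 6 calls, all lower in dnTGFB (27.8% of all genes). Without dnTGFB library 3 and WT library 1, 6 genes were called, against 47.4% of all genes. Nlrc5 was higher by 1.04 ± 0.13 (adjusted p = 4.3e-07), Tap1 by 0.57 ± 0.06, H2-K1 by 0.37 ± 0.02, B2m by 0.28 ± 0.03 and Psmb8 by 0.18 ± 0.06, and Tap2 fell by 0.41 on the log2 scale (adjusted p = 9.92e-07). H2-D1 stood at 0.04 ± 0.02, Tapbp at −0.03 ± 0.05, Psmb9 at 0.09 ± 0.08 and Psmb10 at 0.16 ± 0.07, not called. Tap1 and Tap2, the chains of 1 pump, thus moved in opposite directions in this fit. Of 12 bile duct markers 10 were lower in dnTGFB with all libraries (median −1.34), as were 9 of 12 macrophage markers (median −1.16), 8 of 8 B cell markers (median −3.30) and 6 of 6 platelet markers (median −3.28), and 8 of 8 neuronal markers were higher (median 3.90). Without dnTGFB library 3 and WT library 1, 12 of 12 hepatocyte, 12 of 12 T cell, 9 of 9 neutrophil and 8 of 8 neuronal markers were higher. In that fit 10 of 12 bile duct and 10 of 12 macrophage markers were lower, with 1 higher in each list, and 8 of 8 B cell and 6 of 6 platelet markers were lower. Their part in these values was not tested.

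Male dnTGFB mice given secretin, set against untreated WT mice, had estimates above 0 in 9 of the 10 genes, B2m being the exception at −0.03 ± 0.46. Every dnTGFB secretin library was above every WT library in 9 of the 10 genes, as in 24.1% of all genes, and B2m overlapped. With all libraries Nlrc5 was 54.1 ± 1.66 CPM in dnTGFB secretin and 31.7 ± 11.2 CPM in WT, a log2 difference of 0.77 ± 0.49 (adjusted p = 0.444). Psmb10 was 147 ± 6.42 CPM in dnTGFB secretin and 103 ± 8.15 CPM in WT, a difference of 0.51 ± 0.16 (adjusted p = 0.0996). The median was 0.46 and that of all genes −0.01.
edgeR called 0 of the 10 (1 at an unadjusted p under 0.05) and 4.34% of all genes, and DESeq2 called 1 and 14.3% of all genes. Without dnTGFB library 3 alone edgeR called 8 (28.8% of all genes), and without WT library 1 and dnTGFB library 3 all 10 were called higher, against 38.1% of all genes. They ranged from 0.08 ± 0.02 for H2-D1 (adjusted p = 0.0027) and 0.08 ± 0.03 for B2m (0.0391) to 0.65 ± 0.05 for Tap1 and 1.10 ± 0.11 for Nlrc5 (4.61e-08). H2-K1 stood at 0.47 ± 0.02, Tap2 at 0.44 ± 0.05, Tapbp at 0.42 ± 0.04, Psmb8 at 0.37 ± 0.05, Psmb9 at 0.51 ± 0.07 and Psmb10 at 0.46 ± 0.07. Of 12 bile duct markers 4 were higher in dnTGFB secretin with all libraries (median 0.74) and 0 lower, and 1 of 12 macrophage markers was higher. Of 8 B cell markers 6 were lower and 1 higher (median −3.76), and 6 of 6 platelet markers were lower (median −4.14). Once the 2 male libraries that stood apart were dropped, every bile duct marker of the 12 was called higher. Their median was then 0.57, beside 0.45 for the 10 class I genes. Macrophage (9 of 12), neuronal (8 of 8), neutrophil (7 of 9) and T cell (6 of 12) markers also rose there, with 0 lower. Hepatocyte markers split into 6 higher and 4 lower, B cell markers into 1 and 7, and platelet markers into 0 and 6. Their part was not tested.

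**Figure D2:**
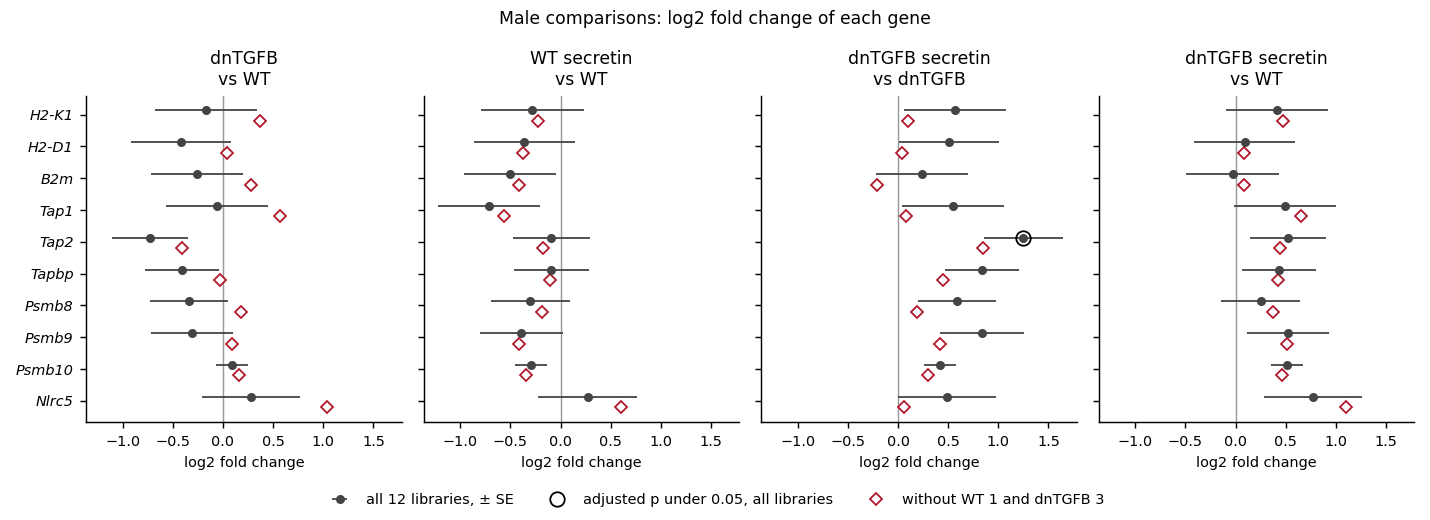
Log2 fold changes of the 10 genes in 4 male comparisons, as filled points with bars of 1 standard error for all 12 libraries, ringed where the adjusted p was under 0.05, and as open diamonds without WT library 1 and dnTGFB library 3. The comparison of dnTGFB secretin with WT lies above 0 for all 10 genes without these 2 libraries, and WT secretin against WT lies below 0 for 9 of the 10, Nlrc5 being the exception.

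The difference between the secretin effects of the 2 genotypes was tested as an interaction in the male fit. It was above 0 in all 10 genes, meaning a higher secretin estimate in dnTGFB than in WT mice, with Tap2 at 1.34 ± 0.54 (adjusted p = 0.109), Tap1 at 1.26 ± 0.73 (0.243), Psmb9 at 1.23 ± 0.59 (0.165) and Psmb10 at 0.71 ± 0.22 (0.0538). The median was 0.88, against −0.07 over all genes. edgeR called 0 of 10 genes, with 2 at an unadjusted p under 0.05 and 15.6% of all genes called. DESeq2 called 1, with 3 unadjusted and 28.7% of all genes called, and scaling by library totals gave 9 calls by edgeR (20.2% of all genes). Without dnTGFB library 3 alone 9 passed (37.8% of all genes), without dnTGFB library 1 alone 1 passed (19.9%), and without WT library 1 and dnTGFB library 3 all 10 passed (48.9% of all genes), 9 of them higher, from B2m at 0.20 ± 0.04 to Tap2 at 1.02 ± 0.07 (adjusted p = 9.86e-12). Nlrc5 went the other way in that fit, at −0.54 ± 0.16 (adjusted p = 0.00677). With all libraries the interaction also passed, above 0, in 10 of 12 bile duct, 6 of 12 macrophage, 4 of 8 B cell and 6 of 6 platelet markers. It passed, below 0, in 5 of 12 hepatocyte, 5 of 8 neuronal, 3 of 12 T cell, 4 of 7 dendritic cell, 3 of 8 stellate cell and 4 of 6 mesothelial markers, and 1 macrophage and 1 dendritic cell marker went against the rest of their list. Without WT library 1 and dnTGFB library 3 it passed above 0 in 11 of 12 bile duct and 8 of 12 macrophage markers, with 1 macrophage marker below 0. In that fit it passed below 0 in 12 of 12 hepatocyte, 12 of 12 T cell and 8 of 9 neutrophil markers. Their part in the class I values was not tested.

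Within a library, ratios between paired genes compared the members without scaling between libraries. Psmb8, Psmb9 and Psmb10 replace the constitutive catalytic subunits Psmb5, Psmb6 and Psmb7, and their ratio per kilobase gives the balance of immunoproteasome to standard transcripts. Psmb10 over Psmb7 was 6.82 ± 0.374 in male dnTGFB secretin (SD, n = 3), 3.63, 3.36 and 1.02 in the dnTGFB libraries, 3.27 ± 0.165 in WT secretin and 3.91 ± 0.466 in WT. Psmb9 over Psmb6 was 0.542 ± 0.00821 in dnTGFB secretin, 0.442, 0.450 and 0.0547 in dnTGFB, 0.365 ± 0.0168 in WT secretin and 0.395 ± 0.0126 in WT. Both were highest in all 3 dnTGFB secretin libraries, and Psmb7 itself was lower there than in dnTGFB (log2 −1.23 ± 0.30, adjusted p = 0.0193, edgeR). Psmb8 over Psmb5 did not separate these groups in the same way, at 0.623 ± 0.0255 in dnTGFB secretin, 0.675, 0.663 and 0.0736 in dnTGFB, 0.495 ± 0.0300 in WT secretin and 0.567 ± 0.120 in WT. In male dnTGFB library 3 the standard subunits Psmb5, Psmb6 and Psmb7 stood at 212%, 154% and 251% of the mean of libraries 1 and 2.

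The ratio of the heavy chain genes split the males by genotype. H2-K1 over H2-D1, per kilobase, was 1.306, 1.285 and 1.301 in dnTGFB secretin and 1.243, 1.247 and 1.22 in dnTGFB, against 1.099, 1.106 and 1.091 in WT secretin and 1.136, 0.9895 and 0.9949 in WT. All 6 dnTGFB libraries were above all 6 WT libraries, and dnTGFB library 3, which stood apart in 9 of the 10 levels, was at 1.22, beside its group. The split was noticed in the data and is given as a description with no test. No such split was present in females, where the ratio was 1.091, 1.194 and 1.089 in dnTGFB secretin, 1.094, 1.047 and 1.163 in dnTGFB, 1.061, 0.8126 and 0.8913 in WT secretin and 1.138, 1.088 and 1.165 in WT. Reads shared between H2 genes and the mice's H2 alleles, which the sources used here do not give, can enter this ratio, and their part was not tested. Tap1 over Tap2 was 0.668 ± 0.0183 in male dnTGFB secretin, 1.161, 1.126 and 0.614 in dnTGFB, 0.445 ± 0.0189 in WT secretin and 0.922, 0.593 and 0.568 in WT, so that dnTGFB libraries 1 and 2 were highest and WT secretin lowest.

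**Figure D3:**
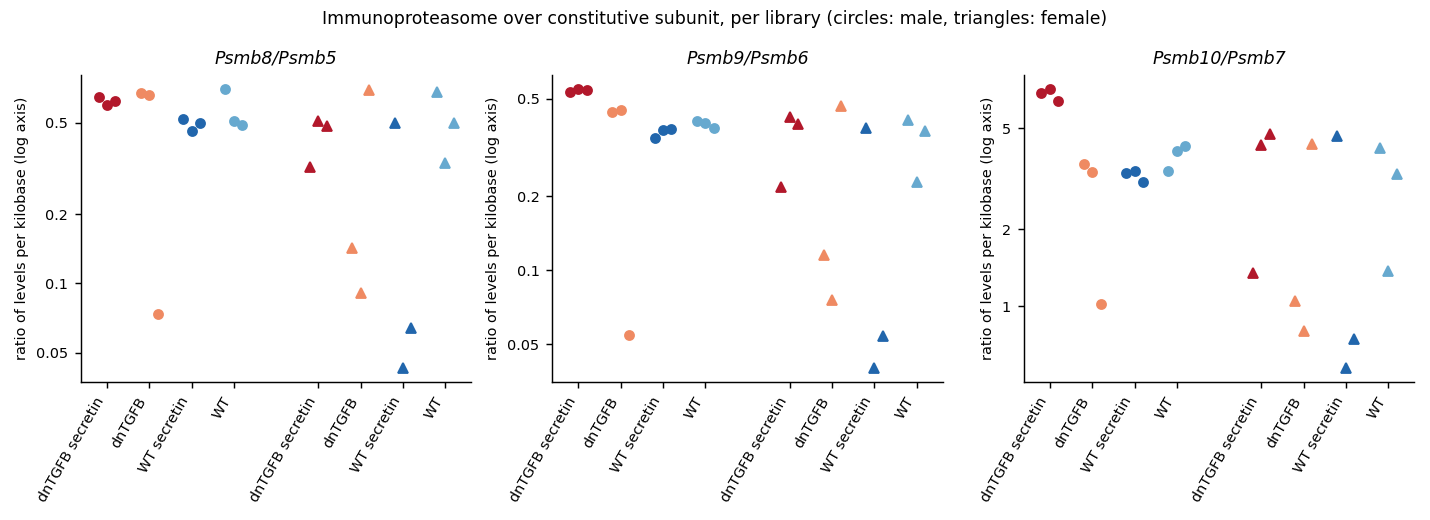
Ratios of the immunoproteasome genes to the constitutive subunits they replace, from levels per kilobase on logarithmic axes, 1 panel per pair, with male libraries as circles and female libraries as triangles and the groups of each sex from left to right dnTGFB secretin, dnTGFB, WT secretin and WT. Each point is a library, and the male dnTGFB secretin libraries lie at 6.423 to 7.164 for Psmb10 over Psmb7, above all other 21 libraries.

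In females the libraries of a group lay far apart. H2-K1 stood at 1140.3, 2787 and 2236 CPM in dnTGFB secretin, at 1137, 796 and 2907 CPM in dnTGFB, at 2043, 349 and 489 CPM in WT secretin and at 2448, 1131 and 2267 CPM in WT. In each group 1 or 2 libraries were far from the rest: the low ones were the 4 libraries rich in heart muscle markers and 1 of the near-identical pairs, dnTGFB secretin library 1 and WT library 2. The other near-identical pair, dnTGFB secretin library 3 and WT secretin library 1, stood at 2236 and 2043 CPM. B2m was 1041, 1448 and 1145 CPM in dnTGFB secretin, 630.5, 504 and 1571 CPM in dnTGFB, 1027, 318 and 332 CPM in WT secretin and 1468, 1061 and 1343 CPM in WT. It was the single gene of the 10 with no overlap in a female comparison, every WT secretin library being below every WT library, as in 10.5% of all genes. Nlrc5 was 6.56, 42.2 and 34.2 CPM in dnTGFB secretin, 20.5, 15.6 and 49.6 CPM in dnTGFB, 28.6, 4.65 and 9.19 CPM in WT secretin and 36.5, 5.75 and 29.5 CPM in WT, and it had the widest range, 10.67 times from lowest to highest. Psmb10 had the narrowest, 71.1 to 140.3 CPM over the 12 libraries. The remaining 6 genes ranged 2.713 times (Tapbp) to 9.144 times (Tap1).

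edgeR called 0 of the 10 genes in each of the 4 female comparisons, with 0 at an unadjusted p under 0.05 and 0.0% of all genes called in each. Median log2 differences were −0.20 for dnTGFB against WT, −0.86 for WT secretin against WT, 0.15 for dnTGFB secretin against dnTGFB and 0.08 for dnTGFB secretin against WT, beside 0.10, 0.11, −0.02 and 0.04 over all genes. The largest estimate was B2m in WT secretin against WT, at −1.21 ± 0.58 (adjusted p = 0.207). DESeq2 also called 0 in each, where it called 3.3%, 12.9%, 1.89% and 0.0% of all genes, and 3 members had an unadjusted p under 0.05 in WT secretin against WT and 0 in the other comparisons. Members with no overlap numbered 0 in dnTGFB against WT, in dnTGFB secretin against dnTGFB and in dnTGFB secretin against WT, where 22.9%, 17.6% and 3.62% of all genes had none in either direction. The secretin by genotype interaction called 0 of 10 by edgeR (0 unadjusted, 18.0% of all genes) and 0 by DESeq2 (1 unadjusted, 31.6%), with a median of 1.03 against −0.07 over all genes.

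Calls in females appeared when libraries unlike the others of their group were left out, namely WT library 2, WT secretin library 1, dnTGFB library 3 and dnTGFB secretin library 1. Without WT secretin library 1 alone edgeR called 4 genes lower in WT secretin than in WT (25.6% of all genes) and 4 in the interaction (38.5%), and without dnTGFB library 3 alone 1 in the interaction (31.0%). Leaving out all 4 leaves heart-muscle-rich libraries as the only ones of WT secretin and dnTGFB, so it sets libraries with those markers against libraries without them. In that fit 9 genes were lower in dnTGFB than in WT (41.4% of all genes called) and 10 lower in WT secretin than in WT (51.2%). Against dnTGFB, 10 were higher in dnTGFB secretin (45.4%), 0 differed between dnTGFB secretin and WT (0.0%, 1 unadjusted), and 10 passed in the interaction (61.8%), with medians of −1.04, −2.06, 1.05, 0.10 and 3.17. Leaving out the 4 heart-muscle-rich libraries instead gave 0 calls by edgeR (0 unadjusted) and medians of 0.52, 0.08, −0.43, 0.09 and −0.52 in the same order, with 1 library left in dnTGFB and 1 in WT secretin, each assumed to vary like the other groups. In 4 of the 5 comparisons the direction of the set thus depended on which libraries were kept, dnTGFB secretin against WT being the exception. The 4 libraries rich in heart muscle markers held bile duct markers at 127.3 to 1647.0 CPM, and WT library 2 and dnTGFB secretin library 1 at 845.4 and 876.7 CPM, against 4221.2 to 7775.6 CPM in the other 6. In the 4 heart-muscle-rich libraries Psmb8 over Psmb5 was 0.0428 to 0.142, Psmb9 over Psmb6 0.0400 to 0.116 and Psmb10 over Psmb7 0.570 to 1.04.

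**Figure D4:**
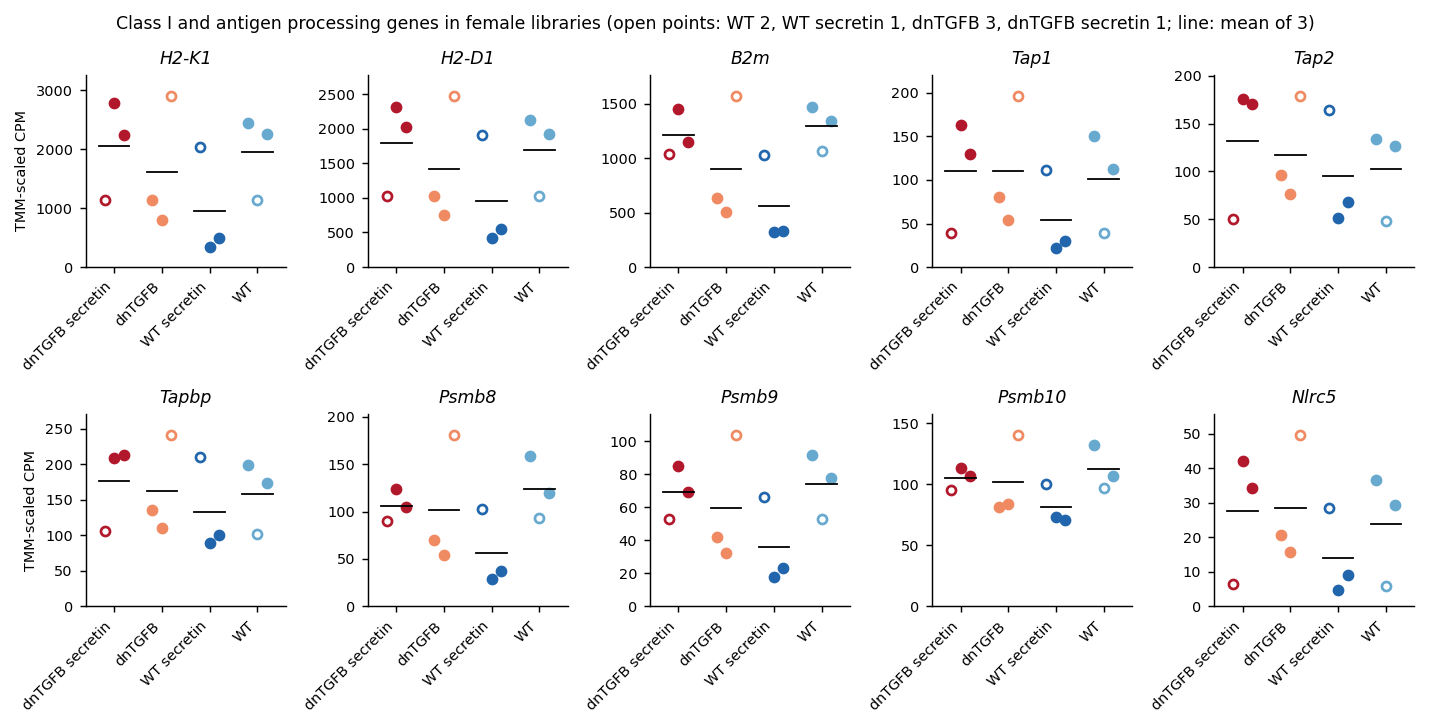
Levels of the 10 genes in the 12 female libraries, in TMM-scaled CPM on a linear axis from 0, with the groups from left to right dnTGFB secretin, dnTGFB, WT secretin and WT. Each point is a library, open points are the 4 libraries unlike the others of their group, and lines are means of 3 libraries. For H2-K1 the dnTGFB libraries lie at 1137, 796 and 2907 and the WT secretin libraries at 2043, 349 and 489.

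Differences between the sexes, female minus male, were tested for 3 of the comparisons in 1 fit of all 24 libraries. edgeR called 0 of the 10 genes for dnTGFB against WT (6.86% of all genes), 0 for WT secretin against WT (0.0%) and 0 for dnTGFB secretin against dnTGFB (7.75%), each with 0 at an unadjusted p under 0.05, and DESeq2 called 0 in each with 0 unadjusted. Medians were 0.05, −0.59 and −0.58, beside 0.25, 0.10 and −0.15 over all genes. Leaving out the unlike female libraries, 4 genes were called for WT secretin against WT (34.0% of all genes), lower in females, and 0 for the others (29.4% and 29.7%).

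Other genes of the pathway were read from 6 lists in the male fit. In WT mice given secretin, 3 of 20 genes of interferon signalling were called, all lower. Irf1, the transcription factor that carries the interferon gamma signal to class I promoters, was 434, 426 and 436 CPM in WT secretin and 2143, 2425 and 2461 CPM in WT, and fell by 2.44 ± 0.54 on the log2 scale (adjusted p = 0.0228, edgeR). Socs1, a feedback inhibitor of the same signal, was 24.3, 26.5 and 32.3 CPM in WT secretin and 127, 148 and 160.0 CPM in WT (log2 −2.39 ± 0.47, adjusted p = 0.0149). Ptpn2, a phosphatase that damps it, fell too (log2 −1.06 ± 0.23), and the median of the list was −0.48. Without WT library 1 and dnTGFB library 3, 12 were lower and 2 higher, where 40.5% of all genes were called. Of 18 interferon gamma targets outside class I, 5 fell and 0 rose (median −0.95), led by the chemokine genes Cxcl10 at 109.6, 105 and 114 CPM in WT secretin and 1347, 1582 and 1562 CPM in WT (log2 −3.77 ± 0.51, adjusted p = 0.00241), Cxcl11 at −3.49 ± 0.47 and Cxcl9 at −2.45 ± 0.58. Without the same 2 libraries 10 of the targets were lower and 4 higher. Set beside these folds, the class I estimates of the same comparison reached −0.71.

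Of 11 promoter factors of class I, 1 was called in that comparison and 4 had an unadjusted p under 0.05. Ciita, the class II activator related to Nlrc5, was 25.0, 28.8 and 30.4 CPM in WT secretin and 7.22, 12.7 and 10.3 CPM in WT (log2 1.48 ± 0.33, adjusted p = 0.0239). Rela, the NF-κB subunit gene, named after its values were seen, was 114, 119.9 and 123 CPM in WT secretin and 243, 265 and 269 CPM in WT (log2 −1.12 ± 0.43, adjusted p = 0.159), with no overlap but no call. Without WT library 1 and dnTGFB library 3, 6 of the 11 were lower, Rela among them, and 1 higher (40.5% of all genes called). Of 18 other class I heavy chain genes and of 18 genes of peptide supply and loading, 0 were called in WT secretin against WT by edgeR (2 and 0 at an unadjusted p under 0.05), and without the 2 male libraries that stood apart 5 and 6 were higher and 8 and 6 lower, against the same share of all genes. A list of 12 receptor and signalling chain genes, drawn up for cells that read class I, held mostly genes of T and NK cells. Not every receptor in it binds class I. Pirb, an inhibitory receptor gene in that list, is not a T or NK cell marker. Of the 12, 2 rose, Pirb by 1.86 ± 0.27 and Klrd1, encoding CD94, by 2.66 ± 0.65, and 10 rose without the 2 libraries.

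In dnTGFB secretin against dnTGFB the heavy chain gene H2-Q2 rose, at 11.7, 10.4 and 10.3 CPM in dnTGFB secretin and 2.42, 1.85 and 1.17 CPM in dnTGFB (log2 2.46 ± 0.24, adjusted p = 0.000164), while Azgp1, a class I relative made by the liver, differed by −2.39 ± 0.68 (adjusted p = 0.0309). H2-Q10, whose product the liver secretes, differed by −2.54 ± 0.79 (adjusted p = 0.0402). H2-Q10 is named after its values were seen, since its libraries overlapped. These 3 were the calls among 18 other heavy chain genes (median 0.36). H2-Q2 also fell in dnTGFB against WT (log2 −1.32 ± 0.24, adjusted p = 0.0061) together with H2-T24 (−1.26 ± 0.31), the 2 calls of 18, and rose in dnTGFB secretin against WT (1.13 ± 0.21, adjusted p = 0.0109), the 1 call of 18. Among peptide supply genes, the chaperone gene Canx rose by 0.72 ± 0.16 and the proteasome activator gene Psme2 by 0.59 ± 0.17 in dnTGFB secretin against dnTGFB. Psmb7 (−1.23 ± 0.30) and the peptidase gene Lap3 (−1.07 ± 0.14) fell, making 2 higher and 2 lower of 18 (median 0.02). Interferon signalling and class I promoter factors had 0 calls of 20 and 0 of 11 there by edgeR (2 and 1 at an unadjusted p under 0.05), and without the 2 male libraries that stood apart 5 and 2 were higher and 6 and 2 lower, where 46.6% of all genes were called. Of 18 interferon gamma targets 4 rose, all of the class II pathway: H2-Ab1 (1.32 ± 0.38), the invariant chain gene Cd74 (1.31 ± 0.41), H2-Eb1 (1.30 ± 0.37) and, named after its values were seen, H2-Aa (1.27 ± 0.37). Ido1, which breaks down tryptophan, fell (−2.75 ± 0.85). Among the 12 genes of the receptor list, 4 fell, including the T cell receptor gene Trbc2 (−2.07 ± 0.56), and 1, Pirb, rose by 1.18 ± 0.28. Without the same 2 libraries the other heavy chains had 6 higher and 8 lower, peptide supply 9 and 5, interferon gamma targets 7 and 8 and receptors 1 and 9.

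Between untreated dnTGFB and WT males the remaining lists held few calls. Of 18 peptide supply genes Lap3 rose by 0.65 ± 0.14 and Canx fell (−0.61 ± 0.16). Of 11 promoter factors Creb1, which binds the X2 box, fell (−0.53 ± 0.15, adjusted p = 0.0347, edgeR), and of 12 genes of the receptor list Trbc2 rose by 1.90 ± 0.56. edgeR called 0 of 20 interferon signalling genes (0 at an unadjusted p under 0.05) and 0 of 18 interferon gamma targets (5 unadjusted), against 8 and 12 higher and 7 and 5 lower without the 2 male libraries that stood apart, where 47.4% of all genes were called. In dnTGFB secretin against WT it called 0 of the peptide supply, interferon signalling, promoter factor, interferon gamma target and receptor genes, with 1, 0, 1, 0 and 2 at an unadjusted p under 0.05. Of all 18777 genes it called 814 there. Without the same 2 libraries these lists had, in that order, 5, 5, 0, 14 and 4 genes higher and 5, 5, 5, 1 and 0 lower. Other heavy chains then had 7 higher and 4 lower, where 7306 of 19176 genes were called. In the interaction 3 of 20 interferon signalling genes and 4 of 18 interferon gamma targets were higher and 0 lower, with medians of 0.55 and 1.12. Of all 18777 genes 2931 were called. Other heavy chains had 1 higher and 1 lower, and peptide supply, promoter factors and receptors had 0 higher and 1, 1 and 2 lower. Without the 2 libraries interferon signalling had 10 higher and 3 lower, and interferon gamma targets 10 and 1. In that fit other heavy chains had 9 and 6, peptide supply 8 and 6, promoter factors 4 and 2 and receptors 0 and 12, where 9379 of 19176 genes were called. In females 0 genes of these lists were called in any of the 4 comparisons by edgeR, with 0 to 5 a list at an unadjusted p under 0.05.

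**Figure D5:**
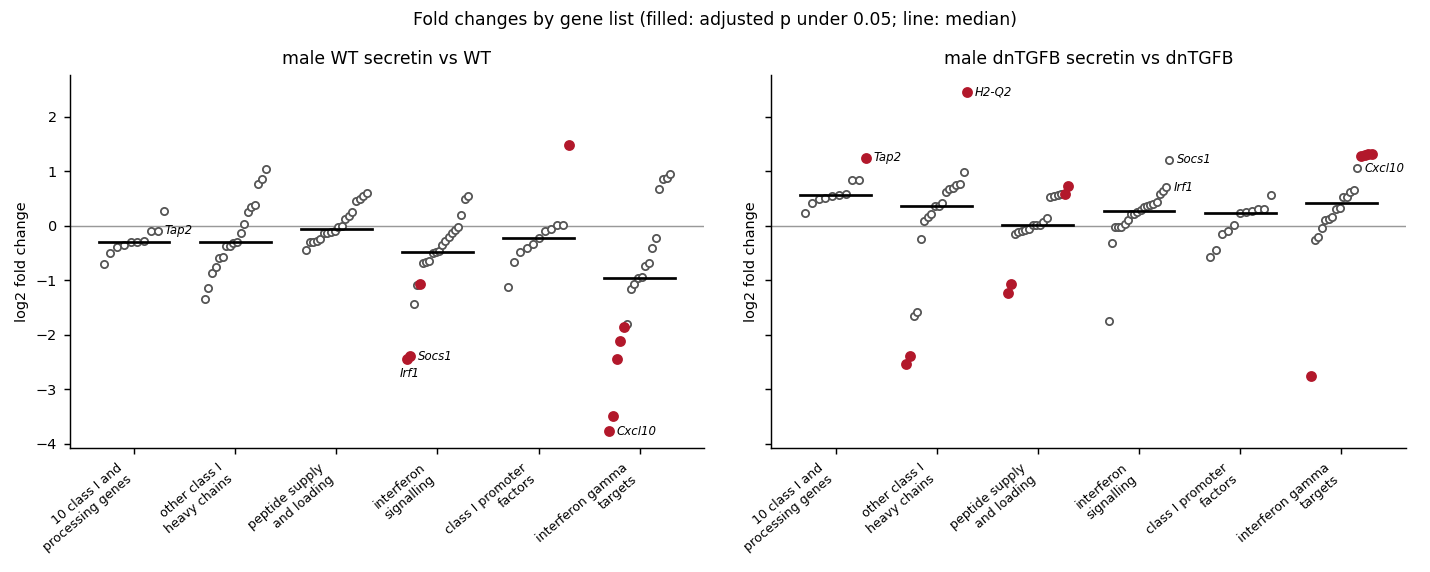
Log2 fold changes of the 10 genes and of 5 lists of related genes in male WT secretin against WT and male dnTGFB secretin against dnTGFB, 1 point per gene, filled where the adjusted p was under 0.05, with lines at the list medians. In WT secretin the interferon gamma targets extend to −3.77 (Cxcl10), while the 10 genes lie between −0.71 and 0.27.

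Likeness to the set was measured as the Pearson correlation, over the 12 libraries of a sex, of a gene's log2(CPM + 1) with the mean of the 10 genes. In males the most alike of 10007 genes outside the set was H2-T23, a nonclassical class I heavy chain gene, at r = 0.997, followed by Sult1a1 and Ly6a at 0.994 and H13, Errfi1 and Gja4 at 0.993, where the median gene had 0.194. H2-T23 itself was 628, 620.3 and 609.8 CPM in dnTGFB secretin, 497, 526 and 89.8 CPM in dnTGFB, 381, 378 and 403 CPM in WT secretin and 504, 456 and 467 CPM in WT. It shares 58 windows of 50 bases with H2-K1 and 101 with H2-D1, so shared reads can enter its correlation. Their part was not tested. Among members, each set against the mean of the other 9, H2-K1 followed the rest most closely in males (0.996) and Psmb10 least (0.590). In females the most alike of 10034 genes were Anxa4 at 0.997, the bile duct keratin gene Krt7 at 0.995, Tstd1 at 0.993, Ehf and Lsr at 0.992 and Btg1 at 0.991 (median −0.231). The libraries come from 4 pools in each sex and include those that stood apart, so these values describe the libraries and carry no test.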

How the data were processed

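Poly(A) RNA from pooled, bead-captured cholangiocytes was sequenced, from 500 ng of RNA per library. The deposited tables hold raw read counts per gene, as whole numbers with each gene's coordinates and length, per the file headers. No label or header names the aligner, the counting tool or its use of strand. Of 49315 gene identifiers, 49056 were in GENCODE M21 (GRCm38).

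Counts were filtered with filterByExpr, scaled by TMM and tested with edgeR 4.0.16 (quasi-likelihood, 1 mean per group, fits per sex, R 4.3.3) and Benjamini-Hochberg adjustment over the 18777 male, 19882 female or 20222 joint genes tested. A call is an adjusted p under 0.05, and SE is the absolute log2 fold change over the square root of F. DESeq2 1.42.0, other scalings and filters, left-out libraries and a replicate block were alternatives, and the fit was tested on simulated data. Libraries were compared by chi-square per gene after thinning to equal depth. Replicate numbers did not pair libraries: 4 of 18 male and 5 of 18 female correlations exceeded 0.1. From related lists, called genes without overlap were named, up to 4 a list. Counts of related lists without libraries that stood apart were added after seeing the data. Members and lists were chosen with earlier results of these data known. Depth was 1429218 to 30203330 counts in males and 6483182 to 104003184 in females, giving 2590 to 438253 counts over the 10 genes.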

Additional observations from a re-analysis of the deposited data

Results flagged for a closer look

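In males given secretin, 6 of the 10 genes had libraries that lay apart in opposite directions in the 2 genotypes: every dnTGFB secretin library was above every dnTGFB library, while every WT secretin library was below every WT library, as in 6.96% of all genes tested. The difference between the 2 secretin effects, tested as an interaction with edgeR's quasi-likelihood test, was 0.86 ± 0.72 for H2-K1 (SE, adjusted p = 0.426), 0.87 ± 0.71 for H2-D1 (0.409) and 0.93 ± 0.52 for Tapbp (0.233). It was 0.89 ± 0.55 for Psmb8 (adjusted p = 0.274), 1.23 ± 0.59 for Psmb9 (0.165) and 0.71 ± 0.22 for Psmb10 (0.0538). None of the 6 passed the test with all 12 libraries. These genes were picked from the libraries of the same comparison, so the interaction values describe them and are no independent support.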

How the results depend on the processing

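Calls depended on the libraries kept and on scaling. Without male WT library 1 and dnTGFB library 3 edgeR called 6 (dnTGFB against WT), 9 (WT secretin against WT), 7 (dnTGFB secretin against dnTGFB), 10 (dnTGFB secretin against WT) and 10 (interaction) of the 10 genes. Leaving out 1 library gave 0 to 3, 0 to 7, 0 to 5, 0 to 8 and 0 to 9 in males, and 0 to 0, 0 to 4, 0 to 0, 0 to 0 and 0 to 4 in females. Sex differences stayed at 0. Library totals in place of TMM moved the median of all male genes to −0.44, 0.19, 0.75, 0.33 and 0.50 and gave 6 calls for dnTGFB against WT, 10 for dnTGFB secretin against dnTGFB and 9 for the interaction. With only the 6 male libraries of a comparison, 0 (dnTGFB against WT), 7 (WT secretin against WT), 0 (dnTGFB secretin against dnTGFB) and 6 (dnTGFB secretin against WT) were called. In the same order 0 of 16879, 4928 of 17416, 506 of 17461 and 5646 of 17754 genes tested were called. DESeq2 called 2 (dnTGFB secretin against dnTGFB), 1 (dnTGFB secretin against WT) and 1 (interaction). Without the unlike female libraries 9, 10, 10 and, for the interaction, 10 were called, and 4 for the sex difference in WT secretin against WT. The fit with a replicate block called 0 of the 10 genes in every comparison, so Tap2 was not called in dnTGFB secretin against dnTGFB. Of all 18777 male genes it called 2230 (dnTGFB against WT), 698 (WT secretin against WT) and 2869 (dnTGFB secretin against dnTGFB). It called 540 for dnTGFB secretin against WT and 1970 for the interaction. Of all 19882 female genes it called 0 in each comparison, and for the sex differences 717, 0 and 0 of 20222. Replicate numbers do not pair the libraries, with correlations of −0.215 to 0.267 in males and −0.891 to 0.906 in females. The cause of these changes was not tested.

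Some single estimates changed sign. For dnTGFB against WT, leaving out 1 library gave H2-K1 −0.50 to 0.31, H2-D1 −0.75 to 0.05, B2m −0.61 to 0.18, Tap1 −0.46 to 0.42, Psmb8 −0.61 to 0.06, Psmb9 −0.63 to 0.10, Psmb10 −0.07 to 0.21 and Nlrc5 −0.01 to 0.71. The highest values are those without dnTGFB library 3. Without that library and WT library 1 the first 6 were 0.37, 0.04, 0.28, 0.57, 0.18 and 0.09. Tap1 was 0.00 with 6 libraries, and Psmb10 and Nlrc5 were −0.37 and −0.35 by library totals. By library totals Tap2 and Tapbp were 0.08 and 0.10 in WT secretin against WT. B2m in dnTGFB secretin against dnTGFB was −0.20 to 0.59 with 1 library left out and −0.21 without both. In dnTGFB secretin against WT it was 0.33 by library totals, −0.07 to 0.08 with 1 library left out and 0.08 without both. The Nlrc5 interaction was −0.21 to 0.52 with 1 library left out and −0.54 without both.

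Of 340 single-gene values under alternatives other than leaving out 1 library, 249 kept direction and side of the threshold, 74 gained a call, 2 lost one and 15 changed sign. Low depth limits male dnTGFB library 3 above all, with 2590 counts over the 10 genes.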
